A study of Mus musculus with 357 samples.

Results

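Single mouse haematopoietic stem cells in which a Cebpa product was detected were compared with stem cells from the same plate in which it was not. The split was chosen by the measured Cebpa value itself: a cell was Cebpa-detected when its threshold cycle (Ct, the PCR cycle at which fluorescence crosses the detection threshold) was 25 or below, and Cebpa-undetected when it was later or no product was recorded. By this rule 233 of 357 cells were Cebpa-detected and 124 were Cebpa-undetected. The Cebpa values therefore describe the groups and support nothing, and all comparisons concern the other 95 assays.

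The mice carried Col1a1-tetO-H2B-mCherry, and the cells were sorted from their bone marrow as Lin-Sca1+c-kit+CD48-CD150+. In this model a histone fused to a red fluorescent protein is induced and then diluted as cells divide. Cells came 2 weeks after labelling (90 and 93 cells on 2 plates) or 5 weeks after it (91 and 83 cells on 2 plates), and all of them, Cebpa-detected or not, carried the same transgene and the same sort phenotype. Each cell was measured by single-cell quantitative PCR with 96 assays after 22 cycles of targeted preamplification. The labels name no animal, so the plates may be technical repeats, and each plate holds 1 time after labelling, so plate and time cannot be told apart. Plates were never pooled. The fluorescence of the cells, which records their divisions, was not analysed here.

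C/EBPα, the protein encoded by Cebpa, is a basic leucine zipper transcription factor that pairs with itself or with other C/EBP proteins and is required for the formation of granulocyte-monocyte progenitors. It is also known to slow cell division, to repress Myc and to act with PU.1 on the genes of myeloid cytokine receptors. In stem cells Cebpa transcripts are low, and their presence has been described as myeloid priming.

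Among the assays, 0 of 26 chosen markers of mature myeloid, B or T, erythroid, endothelial or stromal cells were measured, so the chosen markers could not show such cells. Of other lineage genes, the B cell factor Ebf1 was detected in 0 of 357 cells, the T cell factor Tcf7 in 1.12% and the erythroid factor Klf1 in 6.16%. Further lineage genes were more frequent: the lymphoid gene Dntt in 7.84%, the myeloid receptor gene Csf1r in 8.68% and the erythroid regulator Gata1 in 15.7%. The erythropoietin receptor gene Epor was detected in 25.5% and the megakaryocyte gene Itga2b in 45.4%. Of the sort genes, Kit was detected in 99.2% of cells, Ly6a (Sca1) in 82.4%, Slamf1 (CD150) in 64.1% and Cd48 in 1.40%, and every Cd48 product came later than Ct 18. Values on all 4 plates are given below in the order 2-week plate 1, 2-week plate 2, 5-week plate 1, 5-week plate 2. Assay names are spelled as deposited, which gives ndn, pbx3, mettl7a1 and CDK6 for Ndn, Pbx3, Mettl7a1 and Cdk6.

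A Cebpa product was present in 75 of 90 cells (83.3%), 54 of 93 (58.1%), 58 of 91 (63.7%) and 46 of 83 (55.4%). The 95% intervals (exact, Clopper-Pearson), for counting error alone, ran from 74% to 90.4%, from 47.4% to 68.2%, from 52.99% to 73.6% and from 44.1% to 66.3%. The first plate stood above the other three, and the plates differed as much within the 2-week time as between the times. Detection also varied with position on the first 2 plates: 91.5% of cells in well rows A to D and 74.4% in rows E to H had a product on 2-week plate 1, and 71.7% and 44.7% on 2-week plate 2. On the 5-week plates these shares were 66.7% and 60.9%, then 53.2% and 58.3%. Differences that lost their common sign with well rows in the fit, or within rows A to D alone, are given as such beside the gene. These well-row settings covered only the shares of all Cebpa-detected cells against undetected cells. Rows A to D of 2-week plate 1 held 47 cells, 43 of them Cebpa-detected, so few undetected cells set the differences there.

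**Figure D1:**
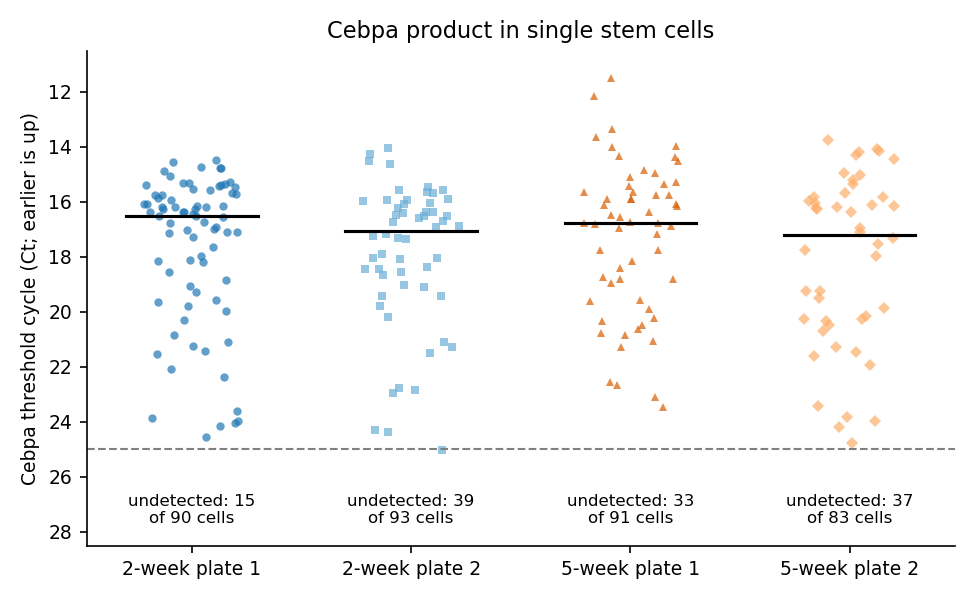
Each point is the Cebpa Ct of 1 cell (vertical axis, earlier cycles at the top), grouped by plate, with a bar at the median of the Cebpa-detected cells, a dashed line at Ct 25 and the number of undetected cells written below. Most products lie between Ct 14 and 20, few cells lie close to the limit, and 2-week plate 1 has 15 undetected cells against 33 to 39 on the other plates.

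The detected product was usually early. Median Cebpa Ct among Cebpa-detected cells was 16.50, 17.04, 16.75 and 17.20, within a range of 11.48 to 24.76 over all plates. A product later than Ct 18 was recorded in 33.3%, 40.7%, 36.2% and 41.3% of the Cebpa-detected cells. The cells just inside the limit had Ct 24.76, 24.56 and 24.38, and the only product beyond it had Ct 25.03, so nearly every undetected cell had no product at all.

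Cebpa-detected cells held slightly more amplifiable material on 3 plates. Mean Ct of the housekeeping transcripts Actb and Gapdh, detected in every cell, was lower in Cebpa-detected cells by -0.25, -0.19 and -0.33 cycles and differed by 0.00 on 5-week plate 2 (mean -0.19 ± 0.14, SD over 4 plates). The number of other assays with a product differed by 1.04, 0.71, -0.39 and -0.71 (mean 0.16 ± 0.84), so the groups had no common direction in it. Each share below was therefore taken within a plate both as it stands and after allowing for the mean Ct of Actb and Gapdh in a least-squares fit. Only 68 of the 95 assays had detected and undetected cells on every plate. Of the other 27, 6 gave a product in every cell and 2 in none.

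With 4 plates, an exact permutation of signs cannot give a two-sided p below 0.125, so no p is given. An assay is called higher or lower when its difference has the same sign on all 4 plates, and the mean and SD over plates are printed beside it. If each sign were equally likely on every plate, a share of 0.125 of assays would be expected to be called. Whether the calls exceed that rate was not tested. After allowing for Actb and Gapdh, 6 of 68 assays were higher in Cebpa-detected cells (8.82%) and 8 were lower (11.8%). Without that allowance 8 were higher (11.8%) and 5 were lower (7.35%), and 10 assays were called in the same direction both times. The median difference over all 68 assays was -1.31 percentage points with the allowance and -0.05 without.

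The sizes are small against counting error. Of the 56 differences that the 14 called assays make over 4 plates, 19 were smaller than the weight of a single Cebpa-undetected cell, which is 6.67 points on 2-week plate 1. Over all 68 assays this held for 85 of 272 differences. The exact 95% intervals of the groups' shares overlapped for every one of the 68 assays on every plate. The mean was larger than the SD over plates in 12 of the 14 called assays, all but Zfp612 and Epor. Over all 68 assays it was larger in 14. Equal signs were the condition of the call and by themselves favour a mean above the SD, so this count supports nothing.

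**Figure D2:**
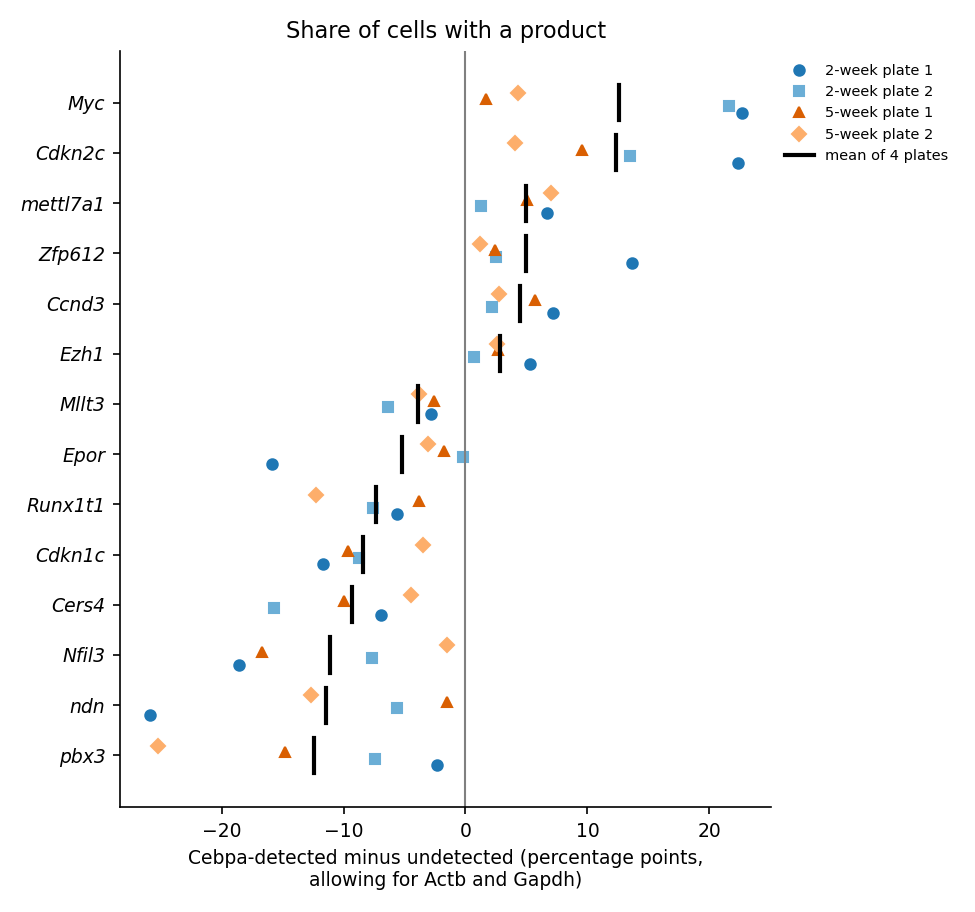
For the 14 assays with the same sign on all 4 plates, points give the difference in the share of cells with a product (horizontal axis, percentage points, Cebpa-detected minus Cebpa-undetected, allowing for Actb and Gapdh) on each plate and bars the mean of 4 plates. The means run from -12.44 for pbx3 to 12.57 for Myc, and the plates of 1 assay often differ by more than 10 points.

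The promoters of the called genes are shown where they hold the letters TTGCNNAA, a core of the sequence that C/EBP dimers bind, searched on both strands (TTNNGCAA on the other). RefSeq promoter windows (build GRCm38.p6, 250 bases before to 50 bases after a start) were matched for 10 of 15 genes, the 14 called ones and Cebpa, giving 13 windows. The letters occurred in 2 of the 13, against 3547 of all 32851 windows (10.8%). The first is the Cdkn2c window at chr4:109665323-109665622 on the minus strand, 1 of 2 windows of a gene called higher. The second is the ndn window at chr7:62348027-62348326 on the plus strand, of a gene called lower. Both are printed 5′ to 3′ with the match in capitals.
Cdkn2c: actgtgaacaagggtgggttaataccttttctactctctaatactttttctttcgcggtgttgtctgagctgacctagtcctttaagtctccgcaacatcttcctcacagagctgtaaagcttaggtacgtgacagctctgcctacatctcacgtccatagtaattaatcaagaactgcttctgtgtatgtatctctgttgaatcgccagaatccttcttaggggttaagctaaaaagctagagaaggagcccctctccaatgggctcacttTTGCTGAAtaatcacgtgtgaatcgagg
ndn: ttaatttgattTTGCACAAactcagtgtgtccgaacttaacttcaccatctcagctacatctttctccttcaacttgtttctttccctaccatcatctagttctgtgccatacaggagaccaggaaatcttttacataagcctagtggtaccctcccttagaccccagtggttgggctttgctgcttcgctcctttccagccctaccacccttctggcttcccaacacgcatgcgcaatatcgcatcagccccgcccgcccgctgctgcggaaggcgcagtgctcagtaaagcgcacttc
In the Cdkn2c window the match lies close to the start, and in the ndn window it lies at the far upstream end. A match describes the letters and is not a binding site, and the assays measured no binding.

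Genes that work with or under C/EBPα were compared next. Of 15 measured members of that list 13 could be compared. Myc was higher on all 4 plates (1 of 13, beside 8.82% of all assays), Nfil3 was lower (1 of 13, beside 11.8%), and 11 were neither, with a list median of 0.32 points beside -1.31 for all assays. Of the 6 measured granulocyte and monocyte genes, 0 were called in either direction and their median was -1.50 points. The mean number of these 6 genes detected per cell was 1.45, 1.30, 1.64 and 1.52 in Cebpa-detected cells and 1.47, 1.38, 1.64 and 1.65 in Cebpa-undetected cells.

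The members of that myeloid list went different ways on different plates. Cebpb, a sister factor that pairs with C/EBPα, was detected in 16%, 5.56%, 36.2% and 32.6% of Cebpa-detected cells and in 13.3%, 23.1%, 33.3% and 32.4% of Cebpa-undetected cells. It was lower by -17.35 points on 2-week plate 2 and within 5 points of equal on the other plates (mean -2.61 ± 10.00). The PU.1 gene, here Sfpi, was detected in 78.7%, 74.1%, 87.9% and 84.8% of Cebpa-detected cells and in 93.3%, 61.5%, 87.9% and 89.2% of the others. Its groups changed order between the 2-week plates.

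The myeloid receptors showed no common direction either. Csf2rb, the shared beta chain of the GM-CSF and interleukin-3 receptors, differed by 11.46, -12.85, 1.64 and -13.98 points. Csf1r, the receptor of the macrophage growth factor, differed by -2.74, 15.52, 4.08 and -2.71 points, with a product in only 8.68% of all cells. Gfi1, which encodes a transcriptional repressor that acts within the granulocyte lineage, differed by 5.08, -8.82, -3.75 and 4.90 points. Cebpe, a late granulocyte factor found in 5.32% of cells, differed by 1.03, 1.81, -4.86 and 3.31 points. For these rarer transcripts a few cells set the sign on a plate. Trib2, whose protein promotes degradation of C/EBPα, differed by -7.21, 6.99, 4.71 and 8.88 points.

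Nfil3 encodes a leucine zipper repressor with a role in innate lymphoid cells. A product was present in 29.3%, 20.4%, 18.97% and 17.4% of Cebpa-detected cells and in 46.7%, 28.2%, 36.4% and 18.9% of Cebpa-undetected cells. The Cebpa-detected share was lower on every plate, by little on the last. The differences allowing for Actb and Gapdh were -18.57, -7.63, -16.69 and -1.52 points (mean -11.10 ± 7.97, SD over 4 plates). Within well rows A to D alone the mean was -4.98 points, with no common sign.

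Myc encodes the growth regulator that C/EBPα is known to repress. It was detected in 86.7%, 90.7%, 84.5% and 82.6% of Cebpa-detected cells and in 60.0%, 66.7%, 78.8% and 78.4% of Cebpa-undetected cells. The gap was wide on both 2-week plates and narrow on both 5-week plates. The differences allowing for Actb and Gapdh were 22.65, 21.64, 1.71 and 4.27 points (mean 12.57 ± 11.11). When cells with a late Cebpa product (Ct above 18) were left out, Myc had no common sign (mean 8.33 points, with -1.75 and -1.06 on the 5-week plates). It had none within well rows A to D either (mean 7.63 points).

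Cell cycle genes and their inhibitors were called in both directions, beside 8.82% higher and 11.8% lower among all assays. Of 7 cell cycle genes compared, 2 were higher (Ccnd3 and Myc) and 0 lower, with a median of -2.38 points. Of 12 inhibitors and quiescence genes, 1 was higher (Cdkn2c) and 2 were lower (Cdkn1c and ndn), with a median of 0.55 points. Without the allowance this list of 12 had 2 higher (Cdkn2c and Mdm2) and 1 lower (Cdkn1c). Mdm2 is a member of the list but is not itself a cell cycle inhibitor. The median of all assays was -1.31 points.

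Cdkn2c encodes p18INK4c, an inhibitor of CDK4 and CDK6 known to limit stem cell self-renewal. It was detected in 34.7%, 46.3%, 48.3% and 39.1% of Cebpa-detected cells and in 6.67%, 28.2%, 33.3% and 35.1% of Cebpa-undetected cells. The Cebpa-detected cells had the higher share on every plate, most clearly on 2-week plate 1, where 1 of 15 undetected cells had a product. The differences allowing for Actb and Gapdh were 22.37, 13.47, 9.58 and 4.07 points (mean 12.37 ± 7.70), against 28, 18.09, 14.94 and 3.99 points without the allowance (mean 16.26 ± 9.89). Within well rows A to D alone the mean was 14.1 points, with no common sign.

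Cdkn1c encodes p57KIP2, the inhibitor most tied to stem cell quiescence, and went the other way. It was detected in 46.7%, 48.1%, 53.4% and 58.7% of Cebpa-detected cells and in 60.0%, 56.4%, 60.6% and 62.2% of Cebpa-undetected cells. The difference had 1 direction on every plate, -11.67, -8.74, -9.66 and -3.48 points (mean -8.39 ± 3.49).

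Necdin (ndn), a growth suppressor of the p53 pathway, was detected in 62.7%, 51.9%, 74.1% and 52.2% of Cebpa-detected cells and in 86.7%, 56.4%, 72.7% and 64.9% of the others. On 5-week plate 1 the plain shares stood in the opposite order, and only the allowance for Actb and Gapdh gave it the sign of the rest. The differences were -25.90, -5.65, -1.49 and -12.66 points (mean -11.42 ± 10.70).

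Ccnd3, a D-type cyclin, was nearly universal, with 94.7%, 88.9%, 100% and 100% of Cebpa-detected cells and 86.7%, 84.6%, 93.9% and 97.3% of the others. Its differences were 7.20, 2.17, 5.73 and 2.71 points (mean 4.45 ± 2.41), of which the last is about 1 cell. The other kinases, cyclins and inhibitors had mixed signs. Cdkn1b (p27KIP1) differed by 2.26, -8.56, -18.03 and -2.23 points, Cdkn1a (p21) by 3.53, -0.25, 6.43 and -2.69, and the licensing factor Cdt1 by -6.88, -17.90, -10.57 and 6.85. CDK2 differed by 11.78, -0.51, 0.15 and -4.43 points.

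**Figure D3:**
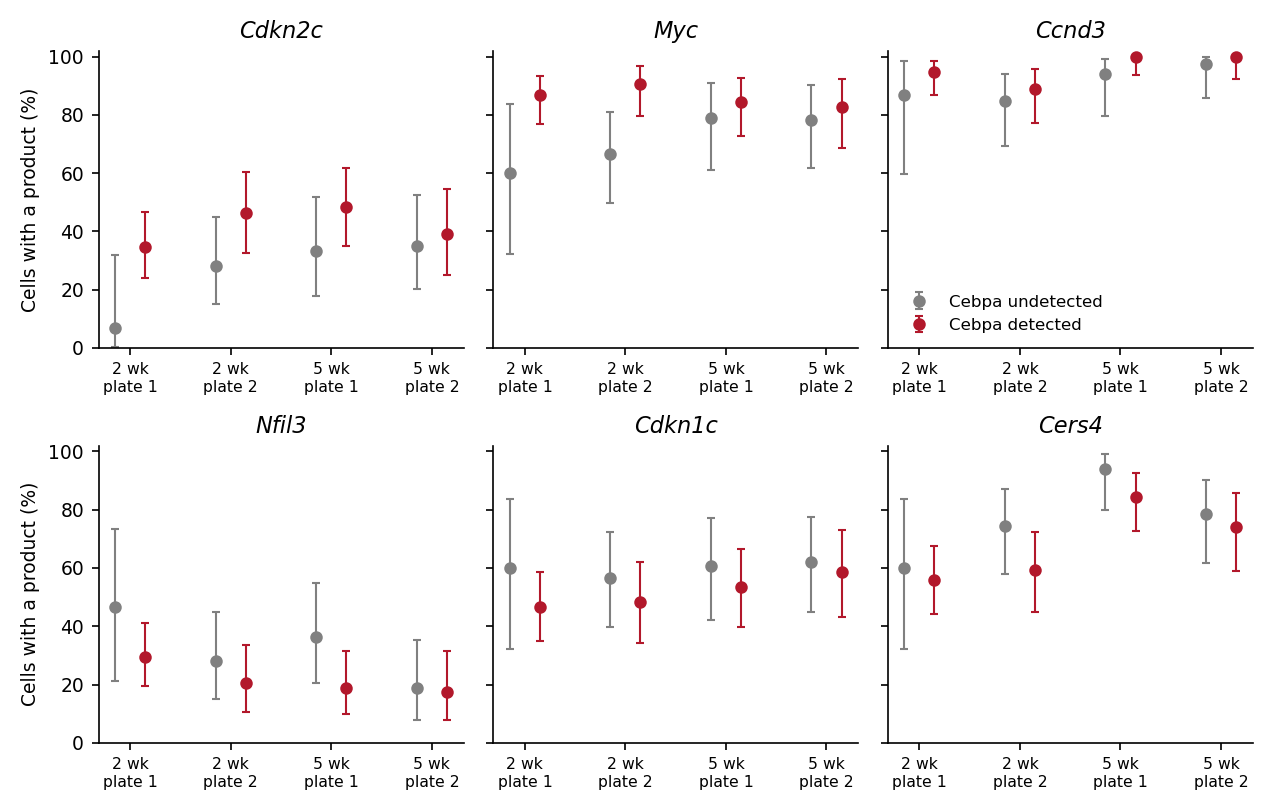
Points give the share of cells with a product (vertical axis, percent) in Cebpa-detected (red) and Cebpa-undetected (grey) cells of each plate for 6 assays, with exact 95% Clopper-Pearson intervals as bars. The upper 3 genes are higher and the lower 3 are lower in Cebpa-detected cells on all 4 plates, and the intervals of the groups overlap on each plate.

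Of 10 stem cell genes compared, 0 were higher (beside 8.82% of all assays) and 3 lower (pbx3, ndn and Mllt3, beside 11.8%), with a median of -3.13 points beside -1.31 for all assays. Without the allowance 0 were higher and 1 lower (Mllt3). The 24 measured stem cell genes as a group differed by -0.62, 0.03, -0.39 and -0.56 detected genes per cell after the allowance (mean -0.38 ± 0.29), so 2-week plate 2 did not share the direction. Most of these genes were detected in nearly every cell and could show no difference in share.

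The homeobox cofactor pbx3 was detected in 20.0%, 22.2%, 44.8% and 26.1% of Cebpa-detected cells and in 20.0%, 28.2%, 54.5% and 51.4% of Cebpa-undetected cells. The shares were equal on 2-week plate 1 and far apart on 5-week plate 2. The differences with the allowance were -2.34, -7.38, -14.79 and -25.24 points (mean -12.44 ± 9.95). Mllt3, a chromatin reader that maintains stem cells, was detected in 96.0%, 90.7%, 94.8% and 93.5% of Cebpa-detected cells and in 100%, 97.4%, 97.0% and 97.3% of the others. Its differences of -2.83, -6.36, -2.57 and -3.83 points (mean -3.90 ± 1.73) rest on few cells without a product.

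TEK, the angiopoietin receptor Tie2, differed by -7.92, 3.12, -5.12 and -21.30 points, and Fgd5, a stem cell marker gene, by -17.67, -4.91, -12.51 and 5.62. Both were lower on 3 of 4 plates and were not called. Of the sort genes, 0 of 4 compared were called, beside 8.82% higher and 11.8% lower among all assays. Slamf1 differed by -10.88, -10.87, -16.25 and 16.05 points and Ly6a by 0.35, -0.82, 6.02 and -15.90. Cd34, a marker of short-term repopulating cells, was higher on all 4 plates without the allowance (1.33, 6.55, 8.31 and 0.41 points) but was -3.62 points on 2-week plate 1 with it.

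The remaining called assays belong to different functions. Cers4, a ceramide synthase, was detected in 56%, 59.3%, 84.5% and 73.9% of Cebpa-detected cells and in 60.0%, 74.4%, 93.9% and 78.4% of Cebpa-undetected cells. Its differences were -6.96, -15.66, -10.00 and -4.47 points (mean -9.27 ± 4.82), 1 of the steadier patterns among the called assays. Ezh1, a Polycomb methyltransferase, differed by 5.28, 0.71, 2.68 and 2.58 points (mean 2.81 ± 1.88). With well rows in the fit its mean was 0.31 points, with no common sign, and within rows A to D it was -5.58.

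Zfp612, a zinc finger gene, differed by 13.62, 2.46, 2.40 and 1.196 points, and mettl7a1, a methyltransferase-like gene, by 6.66, 1.29, 5.00 and 6.99. Epor, the erythropoietin receptor, differed by -15.87, -0.20, -1.74 and -3.05 points. With well rows in the fit, mettl7a1 (mean 5.74 points) and Epor (mean -4.78) had no common sign. Within rows A to D alone, Zfp612, mettl7a1 and Epor had none, and the mean of Epor was 8.56 points. Zfp612 and Epor lean on 2-week plate 1, which holds the fewest Cebpa-undetected cells.

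Megakaryocyte and erythroid genes otherwise gave no call, with 1 lower (Epor) of 7 compared, beside 8.82% higher and 11.8% lower among all assays. Gata1, the erythroid master regulator, was higher on all 4 plates as measured, by 6.67, 9.69, 2.51 and 2.82 points, but was -2.83 points on 5-week plate 1 with the allowance. The von Willebrand factor gene vwf, a marker of platelet-primed stem cells, differed by 5.84, -3.43, -5.14 and 5.71 points. Of 5 lymphoid genes compared, 0 were called, beside the same shares among all assays. Flt3, a receptor of multipotent and lymphoid progenitors, differed by 16.46, -5.56, 9.87 and 5.64 points. Ikzf1 (Ikaros) differed by -16.52, 3.73, -3.14 and -2.74 points and Notch1 by 14.90, -12.19, 4.91 and 5.67.

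The early products were then set against the undetected cells alone, leaving out the Cebpa products later than Ct 18. Neither a fit with well rows nor an overlap of intervals is given for this comparison. Of 66 assays 5 were higher on all 4 plates (7.58%) and 8 lower (12.1%). Flt3 was among the 5. It was detected in 38%, 65.6%, 59.5% and 55.6% of cells with an early Cebpa product and in 26.7%, 56.4%, 48.5% and 37.8% of undetected cells. The differences with the allowance were 9.85, 8.43, 15.80 and 17.61 points (mean 12.92 ± 4.47). Cells with a late Cebpa product had Flt3 in 56%, 27.3%, 47.6% and 26.3%, the highest of the 3 classes on 2-week plate 1 and the lowest on the other plates. The other 4 higher assays were Cdkn2c, Ezh1, Ccnd3 and Egr1. Ezh1 differed by 6.35, 8.99, 9.46 and 9.39 points (mean 8.55 ± 1.48), more than in the comparison of all Cebpa-detected cells. Cells with a late Cebpa product had Ezh1 in 68%, 54.55%, 66.7% and 68.4%. Undetected cells had it in 66.7%, 64.1%, 75.8% and 75.7%, above the late class on every plate but 2-week plate 1.

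Runx1t1 (ETO), a corepressor gene expressed in early progenitors, was the lowest of these assays. It was detected in 44%, 28.1%, 37.8% and 29.6% of cells with an early Cebpa product and in 53.3%, 48.7%, 48.5% and 51.4% of undetected cells. The differences were -11.77, -22.79, -14.35 and -21.35 points (mean -17.56 ± 5.34), against -5.59, -7.62, -3.85 and -12.25 points (mean -7.33 ± 3.63) for all Cebpa-detected cells. Cells with a late Cebpa product had the highest Runx1t1 shares on every plate, 60.0%, 63.6%, 61.9% and 52.6%. Over all plates 65.9% of Runx1t1 products were themselves later than Ct 18, and 37.3% of Cebpa products were. Runx1t1 products came much earlier on 2-week plate 1 than on the other plates. Their mean Ct was 17.3, 23.59, 21.18 and 20.94 in Cebpa-detected cells and 16.4, 22.37, 21.14 and 20.7 in undetected cells. With products of the other assays counted only up to Ct 20, the Runx1t1 difference for all Cebpa-detected cells was -4.69 points and was still called, and up to Ct 18 it was -3.80 points with no common sign. With well rows in the fit it was -4.57 points, also with no common sign, and within rows A to D alone it had none either.

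Rbl2 (p130), a retinoblastoma family protein of quiescent cells, was also lower in cells with an early Cebpa product than in undetected cells, by -13.28, -2.74, -8.48 and -20.84 points (mean -11.33 ± 7.66). With all Cebpa-detected cells it differed by -15.35, 3.15, -4.83 and -11.97 points and was not called. The remaining lower assays were ndn, Nfil3, Cers4, Cdkn1c, Fos and Mllt3. The split at Ct 18 was made on the same Cebpa values that formed the groups. The same undetected cells serve in both comparisons, except the cell with Cebpa Ct 25.03 on 2-week plate 2. That cell was left out of the early differences, but the undetected shares printed beside them include it.

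**Figure D4:**
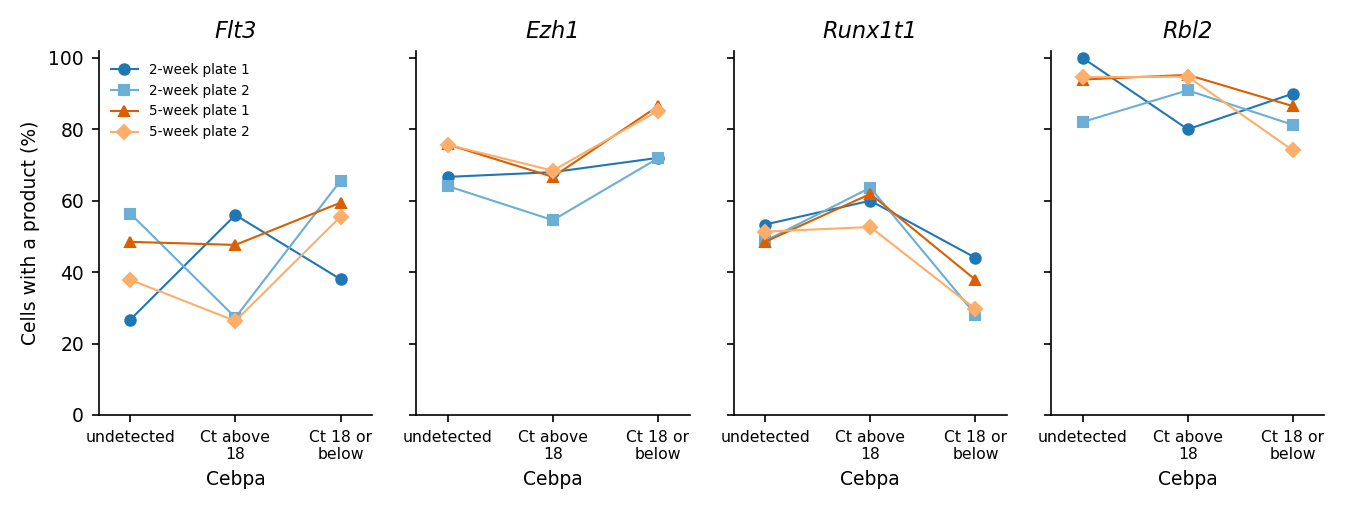
Lines join, for each plate, the share of cells with a product of Flt3, Ezh1, Runx1t1 and Rbl2 (vertical axis, percent) in Cebpa-undetected cells, cells with a Cebpa product above Ct 18 and cells with one at Ct 18 or below. Runx1t1 is highest in the middle class on all 4 plates, while Flt3 and Ezh1 are higher in the early class than in undetected cells on all 4.

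Levels were compared only among cells with a product, on a log2 scale on which the Ct of an assay is subtracted from the mean Ct of Actb and Gapdh. Of 63 assays with at least 5 such cells in each group of each plate, 1 was higher in Cebpa-detected cells on all 4 plates (1.59%) and 12 were lower (19%). The median over the 63 assays was -0.14, so most assays lay below 0. Without centring on Actb and Gapdh the median was 0.02, with 8 assays higher and 3 lower. Taken relative to the median difference of each plate, 6 were higher (9.52%) and 6 lower (9.52%). The balance of levels thus depends on the centring, and only Gfi1b, Cbfa2t3 and Runx1t1 were called the same way with Actb and Gapdh, without centring and with 14 reference assays.

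Gfi1b encodes a transcriptional repressor that acts within megakaryocyte and erythroid cells. It was higher in Cebpa-detected cells by 0.63, 0.12, 0.32 and 0.30 log2 units (mean 0.34 ± 0.21), and by 0.46 without centring. Gfi1b was not called with Cebpa split at Ct 20 or with undetected reactions set at Ct 25. On 2-week plate 1 only 8 Cebpa-undetected cells had its product. The SD of its level over the cells of a group and plate ran from 1.13 to 1.75. Its mean level was -4.36, -4.34, -3.52 and -3.59 in Cebpa-detected cells and -5.00, -4.46, -3.84 and -3.89 in the others. Its share of cells went different ways on the plates (2.296, -13.13, -3.79 and 15.62 points). Runx1t1 was lower in level as well, by -1.27, -1.51, -0.30 and -0.19 (mean -0.82 ± 0.67), and by -0.60 without centring. The SD of its level over the cells of a group and plate ran from 1.12 to 3.86. Cbfa2t3 (ETO2), of the same corepressor family, was lower by -0.28, -0.25, -0.47 and -0.03 (mean -0.26 ± 0.18), of which -0.05 was left without centring.

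The other lower levels were not called without centring. They included Fgd5 (mean -0.48 ± 0.33), the pocket protein gene Rbl1 (-0.44 ± 0.26), the immediate early gene Jun (-0.42 ± 0.25), the Polycomb gene Cbx7 (-0.39 ± 0.42), Erg (-0.31 ± 0.15), ndn (-0.27 ± 0.13) and CDK2 (-0.24 ± 0.11). Myc levels differed by 0.37, 0.63, -0.05 and 0.34 and were not called with Actb and Gapdh. They were called higher with 14 reference assays (mean 0.27), without centring (mean 0.36) and relative to the plate median (mean 0.50). The PU.1 gene, the only granulocyte and monocyte gene with enough cells, differed by -0.27, -0.22, -0.10 and 0.00.

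**Figure D5:**
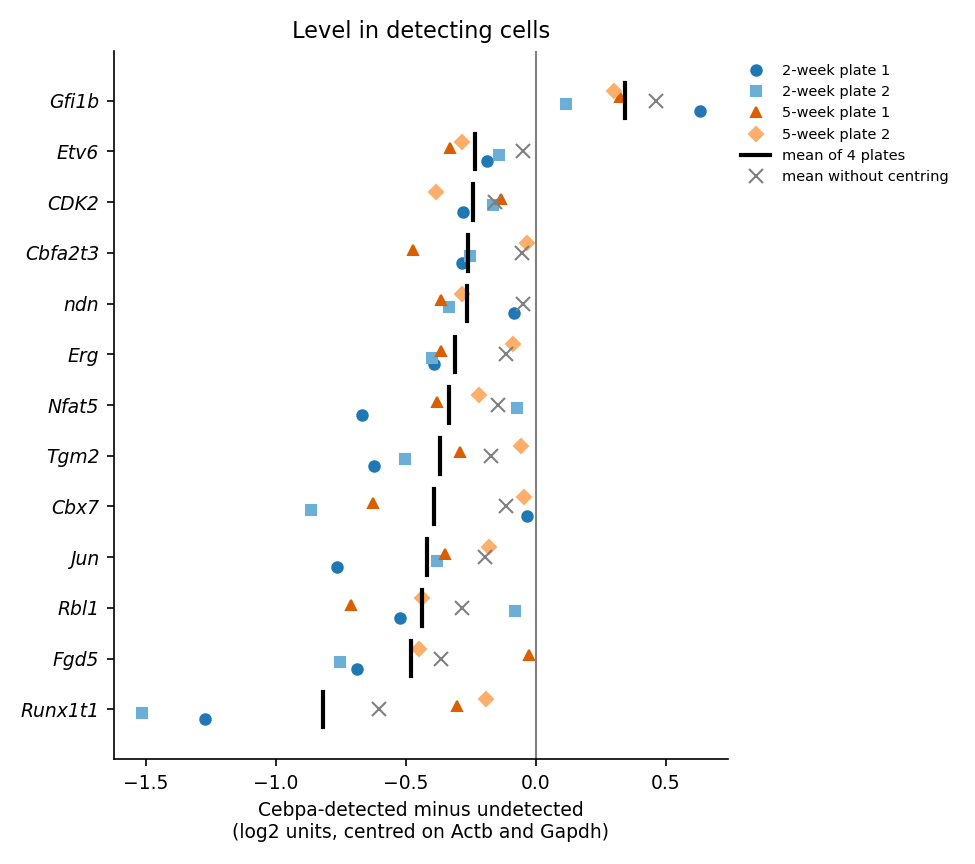
For the 13 assays whose level among detecting cells had the same sign on all 4 plates, points give the difference on each plate (horizontal axis, log2 units, Cebpa-detected minus Cebpa-undetected, centred on Actb and Gapdh), bars the mean and crosses the mean without centring. Gfi1b is the only assay to the right of 0, and the crosses of the lower assays lie nearer to 0 than the bars.

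Within the Cebpa-detected cells, the level of Cebpa was weakly related to other levels. Over 58 assays with at least 20 cells on each plate, Spearman's rho had a median of 0.06 and was positive on all 4 plates for 10 and negative for 3. Both values of a pair share the Actb and Gapdh term, and without centring these counts were 6 and 1. Flt3 (rho 0.12, 0.25, 0.17 and 0.34, over 20 to 33 cells a plate) and Cd34 (0.30, 0.36, 0.07 and 0.29) were the clearest of the positive assays with lineage roles. Erg, Nfat5 and Cbfa2t3 were also positive, with their highest rho on 2-week plate 2 (0.37, 0.39 and 0.37). The negative ones, CDK6, Tal1 and Gata2, had no rho below -0.22, and without centring none of them kept a common sign. The 1 assay negative without centring was Nkx2.3. Cells of a plate share a chip, so no p is given.

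The calls varied in how well they held. Over 16 other settings of the share comparison with the allowance, Cdkn1c, Cdkn2c, Cers4 and ndn were called in the same direction in 14, Nfil3 in 13, and Myc, pbx3 and Runx1t1 in 12. Mllt3 was called in 14 of 15 settings that gave it a value, Zfp612 in 12 of 15 and Ccnd3 in 11 of 13. Epor and Ezh1 were called in 9 of 16 and mettl7a1 in 8. The settings reuse the same cells, so these counts are not independent checks. All 14 calls returned with other assays at Ct 23, any Cebpa product, 14 reference assays or Gapdh alone. These settings changed little, and counting any Cebpa product moved only 1 cell. With a Cebpa limit of Ct 20 in place of 25, 5 of the 14 calls were made again (Ccnd3, Cdkn2c, Ezh1, Cers4 and Runx1t1). There the mean of Myc was 3.75 points, that of Nfil3 -5.05, that of Cdkn1c -5.15 and that of Mllt3 -0.72, none with a common sign. With well rows A to D or E to H as a second term, 10 of the 14 calls were made again, and Ezh1, mettl7a1, Runx1t1 and Epor lost the common sign. Within rows A to D alone, 5 of the 14 were made again: Cdkn1c, Cers4, Mllt3, ndn and pbx3. Ccnd3 had no value there, and 2-week plate 1 had few undetected cells in these rows.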

How the data were processed

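Single-cell quantitative PCR values of 96 assays in 357 cells were used as the authors deposited them: Ct values (another unit than counts, with lower values for more template), not normalized, with 999 for no product. Per the labels' protocols, cDNA was preamplified for 22 cycles, diluted 5 times and run for 30 cycles on microfluidic chips with EvaGreen. The software and its threshold were not given in the sources used here. Depth does not apply to Ct values: the number of cells per group sets the precision. All cell columns were matched to samples, and 0 columns were left unused.

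Cells were split at Cebpa Ct 25 within each plate. Shares of cells with a product (Ct 25 or below) were compared as percentage points, plainly and in a least-squares fit with the mean Ct of Actb and Gapdh, and levels among detecting cells after subtracting that mean. Scripts in Python 3.11.15 with numpy 2.4.6, pandas 2.3.3 and scipy 1.17.1 were tested on simulated data.

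The members and gene lists were chosen with earlier results of these data known. Genes were named by a rule: Cebpa, the reference genes, the C/EBPα list and the sort genes, the 10 highest and 10 lowest called shares, the 5 highest and 5 lowest called levels, up to 3 members of each list, the 5 highest and 5 lowest correlations, and vwf, Flt3, Cd34, Ly6a, Slamf1, Cdkn1b, Ccnd1 and TEK. Rbl2 was named after its values were seen. Of 96 assay names, 82 matched RefSeq symbols as printed, 12 in another case and 1 through a synonym. Sfpi was unmatched and was read as the PU.1 gene, its older name. Alternatives changed the Ct limits, the cells kept, the covariate, the fit, the centring and the plates. 3 were chosen after seeing the data: the level relative to the plate median, and well rows as a second term or rows A to D alone.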

Additional observations from a re-analysis of the deposited data

Results flagged for a closer look

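For CDK6, Rb1 and Ccnd1 both 2-week plates lay on one side of 0 and both 5-week plates on the other, in the share difference allowing for Actb and Gapdh. The 5-week mean minus the 2-week mean was -12.22 points for CDK6 (a D-cyclin kinase; 0.32, 4.48, -8.20 and -11.43 by plate), -23.00 for Rb1 (the retinoblastoma gene; 4.07, 28.20, -2.67 and -11.07) and 19.54 for Ccnd1 (cyclin D1; -15.05, -9.23, 7.91 and 6.87). The difference between the times was not tested, since each time has 2 plates and plate and time cannot be told apart.

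In 4 results 1 plate stood far from the other 3 by Dixon's criterion, which marks about 5% of groups by chance. Whether 4 is more than that rate would give was not tested. Slamf1 was 16.05 points on 5-week plate 2 and between -16.25 and -10.87 on the others. Zfp612 was 13.62 points on 2-week plate 1 and between 1.196 and 2.46 on the others. Cbx6, a Polycomb gene, was -1.25 points on 2-week plate 1 and between 4.94 and 5.96 on the others. The Erg level difference was -0.089 on 5-week plate 2 and between -0.40 and -0.37 on the others.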

How the results depend on the processing

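Shares with the allowance gave 6 assays higher and 8 lower. With Cebpa split at Ct 20, 4 were higher and 5 lower, but only 5 of the 14 calls were shared, and Zfp612 turned to -1.33 points; within well rows A to D 2 were higher, with Ezh1 at -5.58 and Epor at 8.56 points. Requiring a mean of at least 10 points left 2 higher and 3 lower, and without the allowance 2 and 1. Leaving out each plate in turn gave 9 to 12 higher and 9 to 16 lower. Shares without the allowance (8 higher, 5 lower) gave 9 lower with the other assays at Ct 20, 5 higher at Ct 18 and 5 higher without late-reference cells, and 13 to 15 higher and 8 to 11 lower without each plate. Levels (1 higher, 12 lower) gave 8 and 3 without centring, 6 and 6 relative to the plate median, 2 higher with 14 reference assays and 2 with undetected reactions set at Ct 25, where CDK2 turned to 0.22 and Jun to 0.12; at least 10 cells left 0 higher and 9 lower. With Cebpa split at Ct 20, 1 level was higher and 13 were lower, of which 0 and 5 were shared with the main calls. Leaving out each plate gave 3 to 5 levels higher and 15 to 29 lower, the 29 without 5-week plate 2. The material difference ran from -0.26 to -0.15 cycles and that in detected assays from -0.13 to 0.45 without each plate. Correlations positive on all plates numbered 10, and 6 without centring. The cause of these shifts was not tested, except that fewer plates ask for fewer equal signs. No paired analysis was possible beyond the comparison within each plate, because replicate numbers here only name cells in the order they are listed.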
